A study of Homo sapiens with 6 samples.

Results

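The genes described here are 4 extracellular or cell-surface proteases, MMP3, MMP24, PRSS3 and CPM, and the protease inhibitor SERPINB2. They are 5 of the 107 genes in the deposited table and were taken by name. The table itself lists genes that the study selected on the contrast of S310F with EV cells, so the difference between the groups is how these genes came to be listed. That difference is given below as a description. No p-value is given for it, and where a call of a fit over the table is stated, it only places a gene among the listed genes and is not evidence of its own. RNA was sequenced from H1975, a human lung adenocarcinoma cell line that carries a mutated EGFR, in 2 groups of 3 samples. EV cells held an empty vector. S310F cells expressed HER2 with the S310F change, an amino acid substitution in the extracellular domain of this receptor tyrosine kinase. Per the methods of the study, both were stable lines made with lentivirus and puromycin, and the HER2 construct carried an HA tag. Both were grown in the same serum-containing medium. There was no group with wild-type HER2, so the substitution and the raised HER2 level cannot be told apart. The names of the lentiviral constructs in the reagent list of the study carry a CMV promoter before the cloning site and an EF1 promoter before the puromycin gene. Whether each line was a pool or 1 clone is not given in the sources used here, nor do the labels say that the 3 samples of a group were separate cultures. The spread given below may therefore be technical.

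Matrix metalloproteinases cut proteins of the extracellular matrix and of the cell surface with a zinc ion held in their active site. They are made as inactive precursors that other proteases, trypsin-like enzymes and plasmin among them, can activate. Plasmin is released from plasminogen by the activators uPA and tPA, which serpins such as SERPINB2 inhibit by offering a bait peptide bond. Carboxypeptidases remove single residues from the ends of peptides, as carboxypeptidase M does with C-terminal arginine or lysine of peptides such as bradykinin. In lung tumours such proteases are studied for matrix breakdown, invasion and the handling of growth factors and peptide signals.

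The coding stretches of the catalytic or inhibitory sites are shown because they are what makes these genes proteases or an inhibitor. They were read 5′ to 3′ from the GENCODE release 29 transcripts. In the metalloproteinase stretches the capitals mark the codons of the 3 zinc-binding histidines and the catalytic glutamate.
MMP3: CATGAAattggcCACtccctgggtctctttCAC
MMP24: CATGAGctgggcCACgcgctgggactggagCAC
These stretches span codons 218 to 228 of MMP3 and codons 282 to 292 of MMP24, and 23 of their 33 bases were identical. In the trypsin stretches the capitals mark the codon just before the aspartate and the codon of the active-site serine.
PRSS3: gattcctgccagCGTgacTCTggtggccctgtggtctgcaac
PRSS1: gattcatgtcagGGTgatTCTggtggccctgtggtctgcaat
PRSS2: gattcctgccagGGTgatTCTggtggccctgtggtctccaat
The first marked codon encodes arginine in PRSS3, also called mesotrypsin, and glycine in the pancreatic trypsinogens PRSS1 and PRSS2. Mesotrypsin is known for its resistance to trypsin inhibitors. All 3 stretches span codons 208 to 221 of 261, and PRSS3 shared 37 of 42 bases with PRSS1 and 38 with PRSS2. In the SERPINB2 stretch, codons 375 to 386 of 415, the capitals mark the arginine and threonine codons on the sides of the bait bond.
SERPINB2: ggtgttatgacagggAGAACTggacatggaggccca

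The deposited values are read counts that the authors divided by a size factor of each sample, and they are called values throughout. Reads given below were inferred from these values, which in each sample were whole multiples of 1 step taken as the worth of 1 read. ERBB2, the gene of HER2, had values of 847, 857 and 760 in EV and of 15074, 13753 and 16366 in S310F, so the samples fit their labels. The listed genes held 25629 to 28518 reads in each EV sample and 33263 to 36072 in each S310F sample. The depth of the whole libraries is unknown. S310F replicate 3 stood apart: its listed genes differed from those of the other S310F replicates by a chi-square per degree of freedom of 19.2 and 17.1, against 5.79 between replicates 1 and 2 and 2.75 to 5.16 between EV samples. None of the 11 epithelial, 8 fibroblast or 4 endothelial marker genes looked for was listed, so the table allows no check of the cell type. Of 8 leukocyte markers, CD14, CD74 and HLA-DRA were listed, all 3 lower in S310F. Their summed value was 660 to 817 in EV and 213 to 311 in S310F, and PTPRC, CD3E, CD68, LYZ and MS4A1 were not listed. The part of these markers in the results below was not tested.

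The 5 genes moved in both directions. The metalloproteinases MMP24 and MMP3 were lower in S310F cells, with EV means 3.17 and 2.58 times the S310F means. The trypsin gene PRSS3, the carboxypeptidase gene CPM and the inhibitor gene SERPINB2 were higher, by 2.16, 2.03 and 2.66 times. In a limma fit over all listed genes, calls required a Benjamini-Hochberg adjusted p below 0.05 together with a fold change of 1 or more, up or down, on the log2 scale. By this rule SERPINB2 and PRSS3 were called higher, MMP24 and MMP3 were called lower, and CPM was not called. SEs given below are the moderated ones of this fit, drawn toward the spread over all listed genes. Of all 107 genes, 37 (34.6%) were called higher and 66 (61.7%) lower. The values of the groups did not overlap for any of the 5 genes, and over the table every S310F value lay above every EV value for 36.4% of genes and below for 61.7%. Since the table was selected on this contrast, these shares describe the table and nothing is read from them about the 5 genes. RNA from bulk samples does not separate fewer expressing cells from less RNA per cell.

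**Figure D1:**
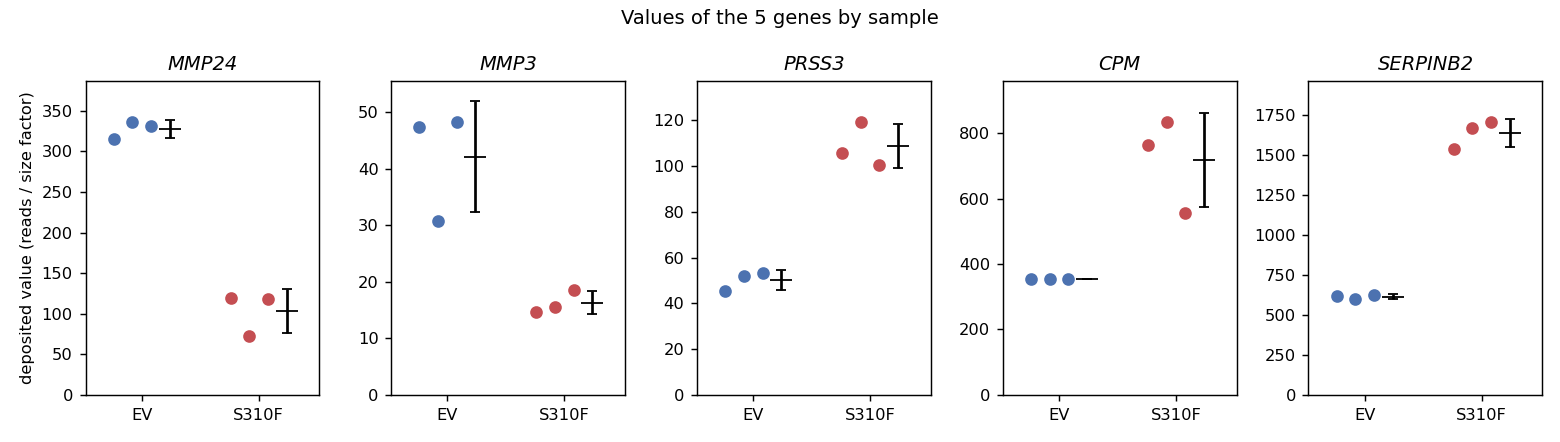
The deposited value (reads divided by the size factor of the sample, linear axes from 0) of each gene is plotted for 3 EV and 3 S310F samples, 1 point a sample in replicate order, with the mean and SD beside them. MMP24 and MMP3 are lower in every S310F sample, PRSS3, CPM and SERPINB2 are higher, and S310F replicate 3 of CPM, at 557, lies below the other S310F samples.

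MMP24 encodes a membrane-anchored metalloproteinase, also called MT5-MMP, which can cleave N-cadherin. Its value was 315, 336 and 332 in EV (328 ± 11.1, SD, n = 3) and 119.5, 72.3 and 118 in S310F (103 ± 26.9, SD, n = 3). All EV samples were close together, whereas S310F replicate 2 was well below the other S310F samples. The lowest EV sample was still 2.64 times the highest S310F sample. The values stood for 313, 349 and 323 reads in EV and 130, 74 and 108 reads in S310F. The log2 fold change on the log2(value + 1) scale was -1.69 (SE 0.253), the 13th lowest of the 107. It was -1.46 without S310F replicate 2, so this sample makes the difference larger.

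MMP3 encodes stromelysin-1, a secreted metalloproteinase that degrades proteoglycans, fibronectin and laminin and can activate other metalloproteinases. Its values were 47.3, 30.8 and 48.3 in EV (42.2 ± 9.81, SD, n = 3) and 14.7, 15.6 and 18.6 in S310F (16.3 ± 2.03, SD, n = 3). EV replicate 2 was the lowest EV sample, at 1.66 times the highest S310F sample. MMP3 rested on few reads, 47, 32 and 47 in EV and 16, 16 and 17 in S310F. The exact Poisson 95% interval of the value in S310F replicate 3 was 10.8 to 29.8, and that in EV replicate 2 was 21.1 to 43.5. The nearest samples of the groups therefore overlapped within counting error, which is the only error such intervals cover. The log2 fold change was -1.30 (SE 0.248), the 42nd lowest. It was -0.97 with a pseudocount of 10 in place of 1, under the limit for a call, since a pseudocount weighs most on low values.

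PRSS3 encodes mesotrypsin, a trypsin of pancreas and other epithelia. Its values were 45.3, 52.0 and 53.4 in EV (50.3 ± 4.34, SD, n = 3) and 106, 119 and 101 in S310F (109 ± 9.61, SD, n = 3). The samples of each group lay near each other and the nearest samples of the groups differed by 1.88 times. The reads behind them were 45, 54 and 52 in EV and 115, 122 and 92 in S310F. The log2 fold change was 1.10 (SE 0.206), the 34th highest, and 0.98, under the limit for a call, with a pseudocount of 10.

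CPM encodes carboxypeptidase M, an enzyme held on the cell surface by a lipid anchor, which in lung is known from alveolar epithelium. It had values of 354, 355 and 353 in EV (354.2 ± 0.606, SD, n = 3) and 763, 834 and 557 in S310F (718 ± 144, SD, n = 3). The EV samples were nearly identical, and S310F replicate 3 was lower than the other S310F samples but 1.57 times the highest EV sample. The gene rested on 344 to 368 reads in an EV sample and 509 to 853 in an S310F sample. The log2 fold change was 0.997 (SE 0.228), just under the limit of 1, which is why CPM was not called. It averages log2(value + 1) over samples, whereas the ratio of the group means, 2.03, lay just above 2. CPM thus sits at the limit, on either side of it by measure. The log2 fold change was 1.17 without S310F replicate 3 and 0.88 without S310F replicate 2.

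SERPINB2 encodes plasminogen activator inhibitor 2, a serpin found both inside cells and secreted. Its values were 618, 601 and 627 in EV (615 ± 13.0, SD, n = 3) and 1537, 1667 and 1707 in S310F (1637 ± 88.8, SD, n = 3). The nearest samples of the groups differed by 2.45 times. With 610 to 624 reads in an EV sample and 1560 to 1705 in an S310F sample, it had the most reads of the 5 genes in every sample. Its log2 fold change was 1.41 (SE 0.197), the 16th highest. The residual SD of SERPINB2 in the fit, which is not moderated, was 0.0600 on the log2 scale. It was the smallest of all 107 genes, against a median of 0.357. The moderated SE is therefore larger than the spread of this gene alone would give.

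**Figure D2:**
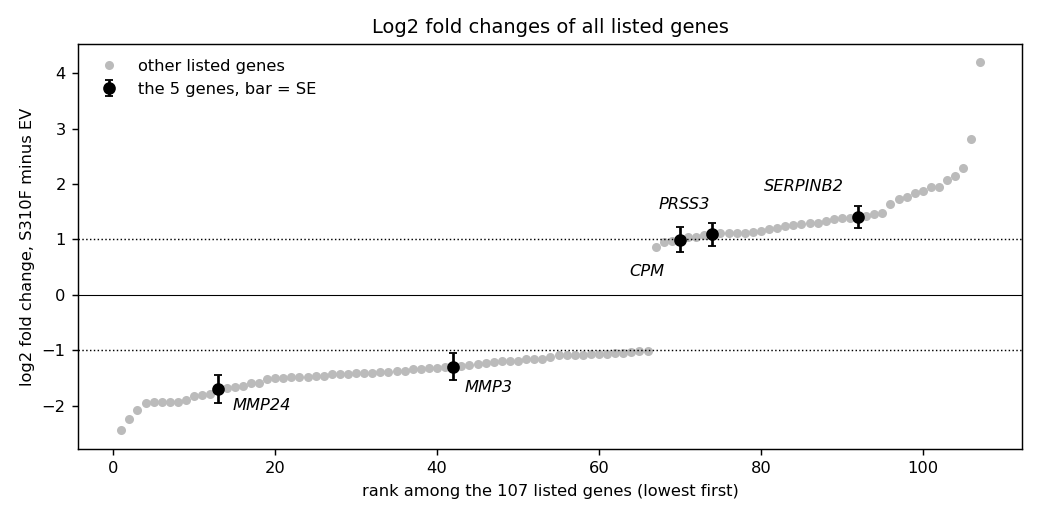
The log2 fold change of S310F minus EV on the log2(value + 1) scale (vertical axis) is plotted against the rank of each of the 107 listed genes, lowest first, with bars of 1 SE for the 5 genes and dotted lines at the limits of 1 and -1. MMP24 (-1.69) and MMP3 (-1.30) lie among the genes with negative changes, SERPINB2 (1.41) and PRSS3 (1.10) among those with positive ones, and CPM lies on the upper limit.

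In size these changes were ordinary for the table. The median log2 fold change was 1.30 over the 41 genes with a positive change and -1.39 over the 66 with a negative change. SERPINB2 and MMP24 were further from 0 than these medians, whereas PRSS3, CPM and MMP3 were nearer to 0. None of the 5 genes was among the 8 that changed by 2 or more on the log2 scale.

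The scaling of the samples bears on the size of the differences. The summed value of the listed genes apart from ERBB2 was 24961 to 26621 in EV and 18090 to 20035 in S310F. The table was selected on the contrast and lists 66 genes with a negative and 41 with a positive change. Its total can therefore differ between the groups without any fault of the scaling. An equal total is thus no better scaling, and is used here only to see how the sizes depend on it. Rescaling the samples to an equal total of these genes moved the median of all genes by 0.43 on the log2 scale. The direction held for all 5 genes under this rescaling, with log2 fold changes of -1.25 for MMP24, -0.87 for MMP3, 1.53 for PRSS3, 1.44 for CPM and 1.85 for SERPINB2. An upward shift of about 0.43 could not have reversed any of them, so this is no support for the directions. The table then held 41 genes called higher and 26 called lower, and genes called higher went from 35.9% to 61.2% of all calls.

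A ratio of 2 genes in the same sample does not depend on the size factor. SERPINB2 over MMP24 was 1.96, 1.79 and 1.89 in EV and 12.9, 23.0 and 14.4 in S310F. CPM over MMP24 was 1.08 ± 0.0378 in EV and 7.54 ± 3.55 in S310F (SD, n = 3). PRSS3 over MMP3 was 1.25 ± 0.386 in EV and 6.74 ± 1.17 in S310F (SD, n = 3). In each of these pairs, a higher gene over a lower one, every S310F ratio exceeded every EV ratio. That outcome was fixed beforehand, since the values of the groups did not overlap for either gene of a pair. The separation is therefore no further evidence for the directions, and the ratios only describe sizes free of the size factor. Pairs that moved the same way changed less. This too follows from the pairing, as changes in the same direction partly cancel in a ratio. SERPINB2 over CPM was 1.74 ± 0.0392 in EV and 2.36 ± 0.611 in S310F, where replicate 3 alone reached 3.06. MMP24 over MMP3 was 8.15 ± 2.39 in EV and 6.37 ± 1.75 in S310F, and the ratios of the groups overlapped. SERPINB2 over PRSS3 was 12.3 ± 1.16 in EV and 15.2 ± 1.58 in S310F (all SD, n = 3).

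Levels of different genes were compared per kilobase, with the exon lengths that the table gives (2048 bases for MMP3, 4414 for MMP24, 1664 for PRSS3, 7535 for CPM and 2748 for SERPINB2). In EV cells the order was SERPINB2 (224 ± 4.74 per kilobase), MMP24 (74.3 ± 2.52), CPM (47.0 ± 0.0804), PRSS3 (30.2 ± 2.61) and MMP3 (20.6 ± 4.79; all SD, n = 3). In S310F cells it was SERPINB2 (596 ± 32.3), CPM (95.3 ± 19.1), PRSS3 (65.2 ± 5.77), MMP24 (23.4 ± 6.09) and MMP3 (7.97 ± 0.993). MMP24 thus went from the second to the fourth place, while SERPINB2 stayed the highest and MMP3 the lowest. With these lengths, the samples of neighbours in this order overlapped in neither group. The closest neighbours in S310F were CPM, lowest at 73.9 per kilobase in replicate 3, and PRSS3, highest at 71.7 in replicate 2. In EV they were PRSS3, lowest at 27.2, and MMP3, highest at 23.6. The lengths pool the exons of all annotated transcripts, whereas the longest coding transcript has 6655 bases for CPM and 1144 for PRSS3. The separation of the CPM and PRSS3 samples in S310F therefore holds only for the lengths used.

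**Figure D3:**
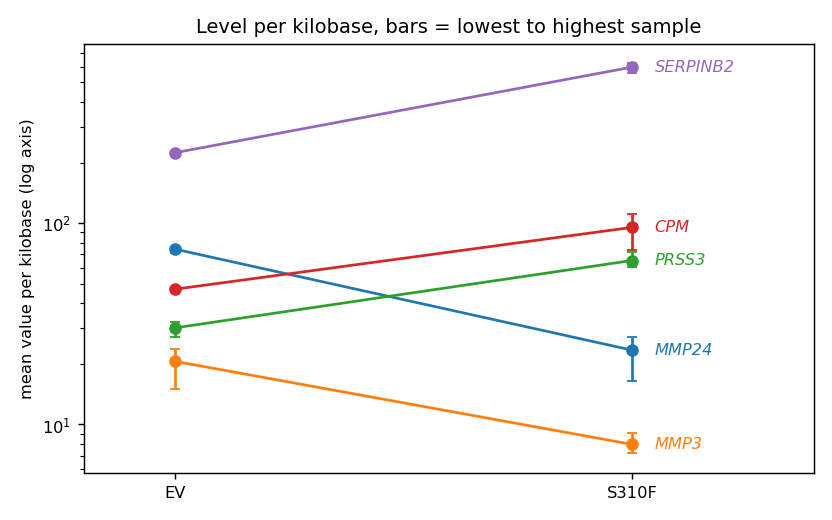
The mean value per kilobase of exon (log axis) of each of the 5 genes is joined between EV and S310F, with bars from the lowest to the highest of the 3 samples. SERPINB2 is the highest in both groups (224 and 596) and MMP3 the lowest (20.6 and 7.97), and the line of MMP24 crosses those of CPM and PRSS3.

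The spread between replicates was set against counting noise with the chi-square of the inferred reads per degree of freedom. The reads of each sample were compared with those expected from the group's common level and the sample's size factor, and Poisson counting alone gives an index near 1. The measure itself does not use the contrast. However, the study selected the listed genes by fold change and P, which favours a small spread within groups. The index is therefore not independent of that selection. In EV it was 0.00103 for CPM, 0.279 for SERPINB2, 0.371 for PRSS3 and 0.379 for MMP24, all below 1, and 2.34 for MMP3. The median over the 5 genes was 0.371, against 1.50 over all 107. In S310F the index was 0.247 for MMP3, 0.839 for PRSS3, 4.95 for SERPINB2, 7.12 for MMP24 and 27.2 for CPM, with a median of 4.95 against 4.41 over all genes. CPM thus had the lowest index in EV and the highest in S310F. Relative to the mean, MMP24 was the most variable of the 5 genes in S310F, with a coefficient of variation of 26.0% against 20.0% for CPM. With 3 samples a group, an index of this kind is imprecise.

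In the deviations from the group means, S310F replicate 3 had low CPM and PRSS3, and S310F replicate 2 had low MMP24. Over the 6 samples the pairs with the largest r in size were these. The deviations of CPM and PRSS3 had r = 0.598 and those of MMP24 and CPM r = -0.651. Those of MMP24 and PRSS3 had r = -0.589 and those of SERPINB2 and MMP3 r = 0.643. The other pairs had r from -0.476 (SERPINB2 and CPM) to 0.0362 (MMP24 and MMP3). CPM hardly varied in EV, so its r values rest on the S310F samples. All r values here are descriptions of 6 points that share size factors within a sample.

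For each gene the listed genes most like it were found by Pearson correlation of log2(value + 1) over the 6 samples. They were AZGP1 for MMP24 (r = 0.991), PSG4 for MMP3 (r = 0.972), ANTXR2 for PRSS3 (r = 0.988), SCG5 for CPM (r = 0.999) and ERBB2 itself for SERPINB2 (r = 0.997). Between 25 and 44 of the 106 other genes had r over 0.9 with each of the 5, as the table was selected on the same contrast. On the deviations from the group means, which leave the contrast out, the closest genes were CGNL1 for MMP24 (r = 0.965), AC131392.1 for MMP3 (r = 0.899), NDUFV2P1 for PRSS3 (r = 0.833), TFPI2 for CPM (r = 0.995) and SLC34A2 for SERPINB2 (r = 0.938). CPM and TFPI2 were both lowest among S310F samples in replicate 3. On the log2 scale the deviations of CPM were 0.00118, 0.00165 and -0.00283 in EV and 0.109, 0.236 and -0.345 in S310F. The r of CPM with TFPI2 therefore rests on the S310F samples. Each closest gene is the highest of 106, so these r values are descriptions only.

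Further genes of these pathways were sought with lists of 307 protease and protease inhibitor genes, of which 8 were in the table. Besides the 5 genes above they were MMP28, CPE and TFPI2, and of the 8 genes 3 were called higher, 4 lower and CPM neither. All 3 listed members of the 23 matrix metalloproteinases, MMP24, MMP3 and MMP28, were called lower, in a table where 61.7% of all genes were, so nothing particular to the family is read from it. MMP28, an epithelial metalloproteinase also called epilysin, had values of 96.7, 102 and 69.9 in EV and 24.8, 41.1 and 48.2 in S310F, a log2 fold change of -1.25 (SE 0.295). Its groups did not overlap, and S310F replicate 3 was the highest of its group.

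Of 19 metallocarboxypeptidases 2 were listed, CPM, which was not called, and CPE, a hormone-processing carboxypeptidase, which was called lower. CPE had values of 360.5, 436 and 437 in EV and 101, 106 and 232 in S310F, a log2 fold change of -1.59 (SE 0.332). Its S310F replicate 3 lay far above the other S310F samples. Of the inhibitors, SERPINB2 was the single listed gene of 35 serpins and TFPI2 the single listed gene of 39 other inhibitors. TFPI2, a secreted Kunitz-type inhibitor of trypsin and plasmin, had values of 108, 103 and 114 in EV and 485, 612 and 214 in S310F, a log2 fold change of 1.87 (SE 0.367). It was higher in each S310F sample, with replicate 3 far below the other S310F samples.

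Among 99 extracellular serine proteases PRSS3 was the only one listed, and among 13 genes of the plasminogen system SERPINB2 was. None of 39 ADAM and ADAMTS genes, of 5 metalloproteinase inhibitor genes (the TIMP genes and RECK), or of 41 cathepsins and other peptidases was listed. Genes of these lists outside the table are not analysed here, and their levels are not known.

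Of 16 substrates and receptors looked for, 2 were listed and both were called lower, as were 61.7% of all listed genes. These were BDKRB2, the bradykinin B2 receptor, with a log2 fold change of -1.06 (EV mean 185, S310F mean 88.9), and CCL2, a chemokine that metalloproteinases can cleave, with -1.07 (255 and 121). Of 74 matrix proteins 4 were listed. COL6A3 (1.39) and LAMB1 (1.28) were called higher, COL12A1 (-1.09) lower, and COL27A1 (0.96) was not called.

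**Figure D4:**
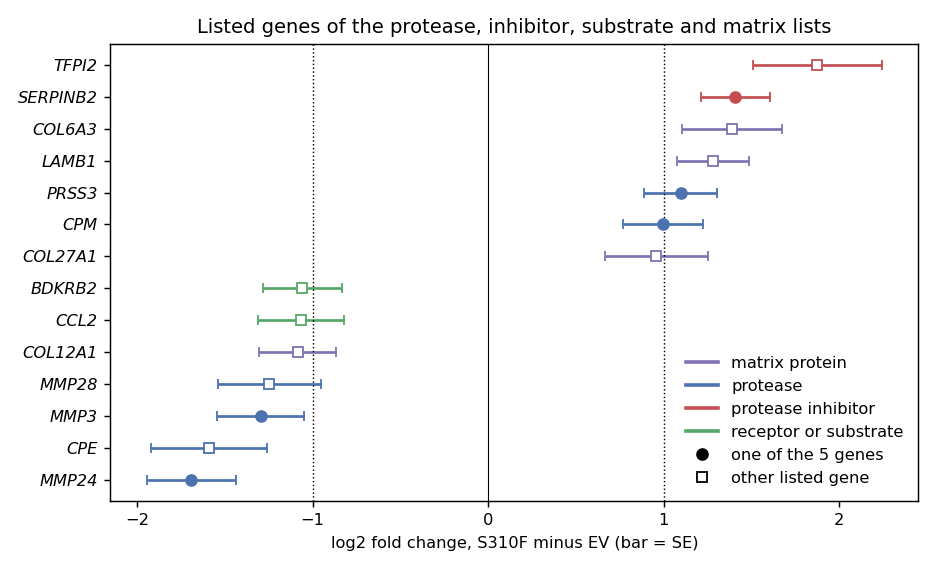
The log2 fold change of S310F minus EV with bars of 1 SE is plotted for the listed genes of the protease, inhibitor, receptor or substrate and matrix lists, with filled circles for the 5 genes described, open squares for the others and dotted lines at 1 and -1. MMP24, CPE, MMP3 and MMP28 are the proteases below 0, and the inhibitors SERPINB2 and TFPI2 lie above 1.

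The positions are those of the table on GRCh38, which were identical to GENCODE release 29 for 107 of 107 genes. MMP24 (ENSG00000125966) lies at chr20:35226654-35277000 on the + strand and has 1 annotated transcript. MMP3 (ENSG00000149968) lies at chr11:102835801-102843803 on the − strand, inside a cluster of metalloproteinase genes. The cluster holds 8 others within 500 kb (MMP7, MMP20, MMP27, MMP8, MMP10, MMP1, MMP12 and MMP13), the nearest being MMP12 at 18933 bases and MMP1 at 37641 bases, and 0 of these 8 were in the table. SERPINB2 (ENSG00000197632) lies at chr18:63871692-63903890 on the + strand, among 9 other SERPINB genes within 500 kb, and 0 of these 9 were in the table. PRSS3 (ENSG00000010438) lies at chr9:33750466-33799231 on the + strand with 8 annotated transcripts, and CPM (ENSG00000135678) at chr12:68842197-68971570 on the − strand with 13.

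Sequence shared with other genes limits how reads could be assigned. Of the MMP24 exon bases, 21.8% were overlapped by MMP24OS and AL121753.2 on the opposite strand. Of the SERPINB2 exon bases, 19.9% were overlapped by SERPINB10 on the same strand, and 25.5% of the longest SERPINB2 transcript matched SERPINB10 in alignments of 100 bases or longer with 95% or more identical bases. The exon overlap was 4.33% for PRSS3, 2.93% for CPM and 1.56% for MMP3. No stretch of PRSS3 matched another gene at 95% identity, but 65.9% of its longest transcript matched PRSS1, PRSS2 or the pseudogenes PRSS3P1 and PRSS3P4 at 90% or more. The read counter and its strand setting are not given in the sources used here, so reads in the overlapped exon stretches cannot be told apart here. How reads were assigned between PRSS3 and the genes similar to it is not known.

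Promoters from RefSeq (GRCh38.p14, 250 bases before to 50 after a start) were found for 4 of the 5 genes in 6 windows. MMP3 had no entry. The windows of PRSS3, SERPINB2 and CPM lie inside the annotated span of each gene and do not cover all of its starts. The annotation gives 8 transcript starts for PRSS3, 6 for SERPINB2 and 10 for CPM. Which start H1975 cells use is not known, and sequence outside the windows was not searched. The windows were searched on both strands for TGANTCA, which matches at the same place on both strands and includes TGACTCA and TGAGTCA, the usual sites of the factor AP-1, for TATAAA, the TATA box, and for the NF-κB motif. The windows of PRSS3 and SERPINB2 are shown because both genes were called higher and both windows hold TGANTCA. In each window it reads TGAATCA, which is neither of the usual AP-1 sites. Capitals mark the matches in the 250 bases before the start, given 5′ to 3′ on the + strand at chr9:33795311-33795560 for PRSS3 and chr18:63887455-63887704 for SERPINB2.
PRSS3: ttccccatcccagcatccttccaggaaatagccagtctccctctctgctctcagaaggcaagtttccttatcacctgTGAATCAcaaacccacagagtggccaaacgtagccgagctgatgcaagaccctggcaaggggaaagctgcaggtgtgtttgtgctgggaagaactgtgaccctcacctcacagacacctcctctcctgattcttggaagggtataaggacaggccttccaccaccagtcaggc
SERPINB2: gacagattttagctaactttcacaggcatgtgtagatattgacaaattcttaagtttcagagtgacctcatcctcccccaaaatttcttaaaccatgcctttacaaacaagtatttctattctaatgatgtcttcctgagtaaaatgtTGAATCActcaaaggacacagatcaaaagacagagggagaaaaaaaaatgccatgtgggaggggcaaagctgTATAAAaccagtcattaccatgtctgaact
TGAATCA began 173 bases before the start in PRSS3 and 102 bases before it in SERPINB2, where TATAAA began 30 bases before the start. TGANTCA was present in 7.71% of all 35116 RefSeq promoters and in 12 of the 109 promoters of listed genes. TATAAA was present in 11.5% of all and in 10 (9.17%) of the 109, and the NF-κB motif in 7.73% and 9.17%. No match to the 3 motifs was found in the windows of MMP24 and CPM. The GC content was 39.0% in the SERPINB2 window, 53.3% in that of PRSS3, 80.0% in that of MMP24 and 48.0% to 80.7% in the 3 of CPM. A match of letters is a description of the window and shows neither binding nor a cause of the levels.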

How the data were processed

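RNA of 3 EV and 3 S310F samples of H1975 cells was sequenced by the study. The authors deposited 1 table of 107 genes selected on this contrast, with a signal per sample, which is the read count divided by a size factor. GRCh38 and hg38 are named in the submitters' processing notes. The aligner, counter and strand setting are not given in the sources used here. The table's 5 columns of the authors' own comparison (group means, log2 fold change, p-value and adjusted p-value) were not used. Each sample's values were whole multiples of the worth of 1 read (100% within a tolerance of 0.01), from which the reads behind each value were inferred.

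S310F was compared with EV by limma 3.58.1 (lmFit and eBayes, R 4.3.3) on log2(value + 1) over all 107 genes and 6 samples, with group as the only term, no filter and Benjamini-Hochberg adjustment. A fold change on this scale understates changes of low genes. The SEs are those moderated by eBayes and are not the error of each gene alone. The text names the 5 genes, ERBB2, their closest correlates and every gene of the pathway lists in the table. The cell type markers and the genes whose sequences or positions are compared are named besides. The members and lists were chosen with earlier results of these data known. Sequence comparisons used BLAST 2.17.0 and Biopython 1.88 with GENCODE release 29 transcripts and RefSeq promoters. Alternatives were other pseudocounts, filters, scaling, a variance trend, a replicate block and leaving out each sample.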

Additional observations from a re-analysis of the deposited data

How the results depend on the processing

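The direction of all 5 genes held under every alternative that was run: pseudocounts of 0.1 and 10, filters on a mean of 10 and 50 (the latter removes MMP3), leaving out each sample, a variance trend, the replicate block and rescaling to equal totals. None of these could have reversed a direction. The values of the groups did not overlap for any of the 5 genes. The rescaling shifted changes upward by a median of 0.43, less than the size of either negative change. With a filter on a mean of 50, 24 genes were called higher, since 75 genes were tested. Rescaling left 26 genes called lower and gave log2 fold changes of -0.87 for MMP3, -1.25 for MMP24, 1.53 for PRSS3, 1.44 for CPM, 1.85 for SERPINB2 and 4.64 for ERBB2, since it shifts all changes upward. MMP3 then lies within the limit of 1 and CPM beyond it. With a pseudocount of 10, MMP3 stood at -0.97 and PRSS3 at 0.98, both within the limit. Leaving out 1 sample gave 34 to 41 genes called higher and 54 to 64 called lower. The median spread index, over the 5 genes in EV and in S310F pooled, was then 0.375 to 0.765 against 0.609 with all samples. The lowest came without S310F replicate 2. Taken apart, the medians with all samples were 0.371 in EV and 4.95 in S310F. The replicate numbers are shared between the groups, but same-numbered samples did not deviate together over the listed genes (r = 0.0567, 0.0171 and -0.0244). With 3 samples a group and a selected table, these values cannot decide whether same-numbered samples were handled together. The labels do not say it either. With the replicate block 37 genes were called higher and 66 lower, as without it, and the SEs of the 5 genes were 0.292 to 0.302. The planned count test on the recovered reads was not run, since so short a table holds too few low values for the check of whole reads that such a test requires, and the read numbers and Poisson intervals rest on the same inference. With 3 samples a group and 16 or 17 reads in S310F, MMP3 is limited by depth.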
